A study of Mus musculus with 4 samples.

Results

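Enteroendocrine cells, the scattered hormone-making cells of the gut lining, were taken from single cell libraries of mouse small intestinal crypts. A cell was a member when alpha-defensins (symbols that start with Defa) made up under 20% of its counts (UMIs, tags that count captured transcripts) and at least 4 of 10 endocrine genes had 1 or more UMI: *Chga*, *Chgb*, *Neurod1*, *Pcsk1n*, *Scgn*, *Cpe*, *Fev*, *Scg3*, *Cryba2* and *Rfx6*. The rule found 179 of 26498 cells, which were 13 cells in each of 2 libraries labelled *Slc7a5* fl/fl (fl/fl 1 and 2), and 80 and 73 cells in those labelled *Slc7a5* IEC-KO (IEC-KO 1 and 2). These cells were chosen by their measured counts, so the level of the 10 genes and of the defensins in them is a description and not a result.

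The study asked what the loss of *Slc7a5*, the gene of a transporter of large neutral amino acids, does to the crypt. Both groups carried a floxed *Slc7a5* on both chromosomes, were 8 weeks old and, by the study's methods, were sex-matched littermates housed together. Those labelled *Slc7a5* IEC-KO also carried a Cre driven by the villin promoter, which acts in the whole intestinal epithelium, and those labelled *Slc7a5* fl/fl served as controls. Live cells positive for EpCAM and negative for CD45 were sorted and made into 10x 3′ libraries, 2 per genotype (n = 2). The labels name 4 mice but not which mouse is in which library, so the spread between libraries of a group may be technical, and every p here measures that spread only.

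Enteroendocrine cells arise from crypt stem cells through a progenitor that expresses *Neurog3*, and store peptide hormones in granules that are released when nutrients reach the gut. By tradition they are grouped by their product: K cells make GIP (*Gip*), which raises insulin release after a meal, L cells make GLP-1 (from *Gcg*) and peptide YY (*Pyy*), I cells make cholecystokinin (*Cck*), N cells neurotensin (*Nts*), S cells secretin (*Sct*), D cells somatostatin (*Sst*), X cells ghrelin (*Ghrl*), and enterochromaffin cells serotonin (through *Tph1*) and substance P (from *Tac1*). The same cell can make several of these, and the mixture is known to shift along the gut and as a cell leaves the crypt.

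The libraries differed in depth along with genotype. The members had a median of 13682 and 16378 UMIs per cell in the fl/fl libraries and of 7186.5 and 10575 in the IEC-KO libraries, with 2860, 3141, 2034.5 and 2474 genes in the same order. Summed over members, the 4 libraries held 171927, 205553, 629903 and 833922 UMIs, so the fl/fl side rested on fewer cells and fewer transcripts throughout. Each library also started at its own lower limit, the shallowest cells having 8909 and 9670 UMIs against 3843 and 5858. Up to 132 barcodes were shared by a pair of libraries. Of the members' barcodes, 1 of fl/fl 2 and 2 of IEC-KO 1 also occurred in IEC-KO 2, and 0 were members in both libraries. By doublet score, with the number marked in each library set by an assumed rate, 8 members were marked as doublets. UMIs of at least 4 of 10 tuft cell markers were also seen in 12 members.

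The markers set for the label were present. Of all 179 members, 68.7% had a UMI of the granule protein gene *Chga*, 96.6% of its relative *Chgb* and 66.5% of *Neurod1*, a transcription factor of the endocrine lineage. Among the 255 tuft cells, another rare secretory type, these shares were 9.80%, 27.5% and 2.35%. The scarcest gene of the rule was *Rfx6*, a transcription factor, seen in 17.9% of members and 0.392% of tuft cells. All of these genes belong to the rule and the tuft cells were taken from non-members. The rule itself thus set these shares apart, and they are a description. Ranked by the ratio of CPM (counts scaled to a common total per library) in members to that in the 15007 other cells under the defensin limit, the leading genes were the granule protein gene *Scg2* (a ratio of 130), *Nts* (114), the transcription factors *Etv1* (108) and *Isl1* (91.6), *Gcg* (89.8), *Pyy* (89.7), *Pax6* (88.4), *Hmgn3* (86.2), *Insm1* (85.0), *Neurod1* (82.7), *Gip* (81.3), *Cck* (73.0), *Scgn* (71.2), *Afp* (63.5) and *Cpe* (60.8). The rule used only *Neurod1*, *Scgn* and *Cpe* of these 15. The ratios of *Nts*, *Gip* and *Afp* depended on single libraries. Without IEC-KO 1 the ratio was 36.1 for *Nts* and 48.7 for *Gip*, and without fl/fl 1 it was 17.2 for *Afp*.

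Transcripts of other cell types were present in the members too. Paneth cell markers made up 8.68%, 6.44%, 9.44% and 10.4% of their UMIs in fl/fl 1, fl/fl 2, IEC-KO 1 and IEC-KO 2, led by *Defa24* in each library, and goblet cell markers made up 12.9%, 10.7%, 10.2% and 9.99%. Tuft cells of the same libraries held 6.14%, 6.57%, 8.50% and 9.43% of Paneth markers, and the other low-defensin cells 8.15%, 8.80%, 9.62% and 10.1%. Immune markers were at or below 0.0006% of members' UMIs in every library. These Paneth markers include defensins, whose level the rule itself bounds in all 3 groups. The 9 Paneth markers whose symbols do not start with Defa made up 3.94%, 3.104%, 3.94% and 4.31% of members' UMIs, 3.13%, 2.97%, 3.47% and 3.98% of those of tuft cells, 3.83%, 3.98%, 4.16% and 4.24% of those of the other low-defensin cells and 17.7%, 17.6%, 16.1% and 15.2% of those of the defensin-rich cells. The part of free RNA in this was not tested.

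Cells continued across the defensin limit with no gap. At the limit of 4 panel genes there were 51 members, with a median of 16 panel UMIs and a lowest of 4, whereas the 110 low-defensin cells with 3 panel genes had a median of 3 panel UMIs. The members nearest to the defensin limit had 19.6%, 19.7% and 19.97% of their UMIs in defensins, and the nearest cells outside 20.2%, 20.3% and 20.6%. A further 401 cells had 4 or more panel genes but 20% or more defensin UMIs, of which 147 and 138 were in the fl/fl and 30 and 86 in the IEC-KO libraries. Those cells were not counted as enteroendocrine.

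Enteroendocrine cells made up 0.358% of the cells of fl/fl 1 (95% exact binomial interval 0.191 to 0.611), 0.404% of fl/fl 2 (0.215 to 0.69), 0.7997% of IEC-KO 1 (0.635 to 0.994) and 0.757% of IEC-KO 2 (0.594 to 0.951). Both IEC-KO libraries lay above both fl/fl libraries, with means of 0.778 ± 0.0302% and 0.381 ± 0.0327% (SD, n = 2 each), a ratio of 2.04. The two-sided exact permutation p was 0.333, the smallest that 2 against 2 libraries allow. As a share of the cells under the defensin limit, the difference was smaller, at 0.871%, 1.10%, 1.1976% and 1.1987%, a ratio of 1.21 (exact permutation p = 0.333).

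The difference depended on the defensin limit. At a limit of 10% the ratio was 1.87, whereas at 40% the shares overlapped, at 1.40% and 0.808% in the fl/fl and 1.07% and 1.3998% in the IEC-KO libraries, a ratio of 1.12 (exact permutation p = 1). With no such limit it was 4.40% and 4.69% in the fl/fl and 1.0996% and 1.65% in the IEC-KO libraries, lower in the latter by 3.17 percentage points. When every cell was thinned to 3800 UMIs at random before the rule was applied, 8, 2, 48 and 46 cells remained, or 0.22%, 0.0622%, 0.4798% and 0.477% of all cells, a ratio of 3.39. The intervals cover counting error only.

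**Figure D1:**
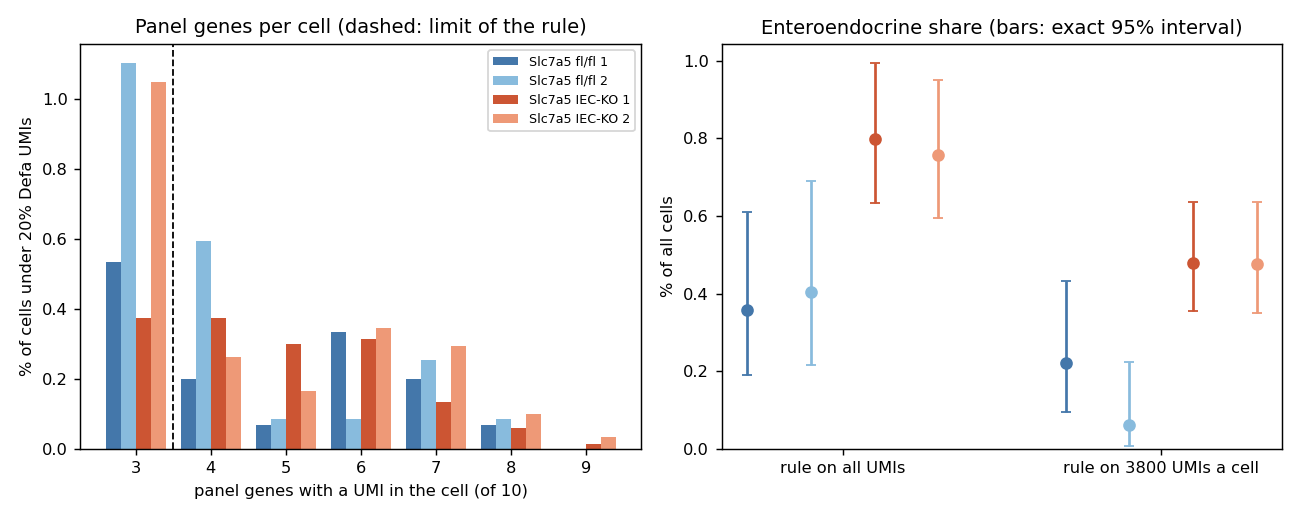
Left, share of low-defensin cells (%) by the number of panel genes with a UMI, for each library, with the limit of the rule as a dashed line. Right, enteroendocrine cells as a share of all cells (%) in each library with exact 95% intervals, by the rule on all UMIs and on cells thinned to 3800 UMIs; the IEC-KO libraries were above the fl/fl libraries in both, 0.7997% and 0.757% against 0.358% and 0.404% on all UMIs.

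To compare hormones between libraries of unequal depth, each cell was thinned to 3800 UMIs, and a cell was said to carry a hormone at 3 or more UMIs, or at 1 or more for *Tph1*, an enzyme whose transcript is scarce. The kit counts transcripts at their 3′ end, so UMIs of different genes can be set side by side without division by length. Secretin was the most widely carried, by 123 of 179 cells, followed by *Cck* with 80, *Gip* with 69, *Gcg* with 32, *Tac1* with 32, *Pyy* with 29, *Ghrl* with 24, *Tph1* with 23, *Nts* with 14 and *Sst* with 9. These counts pool 26 fl/fl and 153 IEC-KO members, so the order is mostly that of the IEC-KO cells. The amount in a carrying cell ran in another order, with a median of 271 UMIs in 3800 for *Gip*, 83 for *Sst*, 43.5 for *Nts* and 33 for *Gcg*, but 7 for *Sct* and 6 for *Tac1*. These medians pool the libraries too. The fl/fl carriers of *Gip*, all in fl/fl 1, held 3, 4, 11, 23 and 343 UMIs. In the most loaded cell *Gip* alone made up 54.2% of all UMIs.

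*Gip* and *Sct* were also counted in cells of another type. Among tuft cells of all libraries, which are not known to make either, 12.5% reached 3 UMIs of *Gip* and 10.98% of *Sct*. Their median totals before thinning were 12597, 12666.5, 5722 and 9013 UMIs in fl/fl 1, fl/fl 2, IEC-KO 1 and IEC-KO 2. In the same order the *Gip* share was 0%, 8.33%, 8.55% and 20.6%, and the *Sct* share 11.8%, 8.33%, 15.4% and 6.19%. These shares rest on 17, 24, 117 and 97 tuft cells, and the background of *Gip* thus differed between libraries. For the other hormones the pooled share of tuft cells was at most 1.18%. Among the 15007 other low-defensin cells, 12.3% reached 3 UMIs of *Gip*, 15.8% of *Sct* and 5.84% of *Tac1*. The 99th percentile of *Tac1* in those cells was 6 UMIs, as was the median of carrying members, and 36 of those cells reached 10. A *Tac1* count near 6 in a member is thus within the range of the other low-defensin cells. At 10 or more UMIs, 0 of the 255 tuft cells carried *Gip* or *Sct*, which allows a share of up to 1.18% (3 counts of the total), and 57 and 51 members did. The 99th percentile of *Gip* in tuft cells was 6 UMIs, so a *Gip* count below that in a member is within their background.

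Most members carried more than 1 hormone. Over the 9 peptide genes, 20 cells carried none, 34 carried 1, 46 carried 2, 45 carried 3, 19 carried 4 and 15 carried 5, so that 125 cells (69.8%) carried at least 2. With the stricter limit of 10 UMIs this share was 40.8%, or 73 cells, and 54 cells carried none. By library, 69.2%, 38.5%, 77.5% and 67.1% of members carried at least 2 at 3 UMIs. The groups overlapped (exact permutation p = 0.667). At 10 UMIs the shares were 38.5%, 23.1%, 45.0% and 39.7%, which did not overlap (exact permutation p = 0.333, the smallest possible).

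Many different combinations were seen, and no grouping of them was made or tested. At 3 UMIs (1 for *Tph1*) the most frequent were *Gip* with *Cck* and *Sct* in 25 cells and *Gip* with *Sct* in 16. No hormone was carried by 15 cells. *Gcg* with *Pyy*, *Cck* and *Sct* was seen in 10 cells, *Sct* alone in 10 and *Gip* alone in 8. There were 5 each with *Gcg*, *Pyy*, *Cck*, *Nts* and *Sct*, with *Tac1* alone, with *Tac1* and *Tph1*, and with *Tph1* alone. The order depended on the limit. At 10 UMIs of a peptide hormone, *Gip* alone was seen in 28 cells. *Gip* with *Cck* and *Sct* was then seen in 12 and *Gip* with *Sct* in 8, while 54 cells carried none. At 10 or more UMIs, 20 of 26 *Gcg* carriers (76.9%) also carried *Pyy*, and 20 of 22 *Pyy* carriers (90.9%) also carried *Gcg*. Of the *Gcg* carriers, 20 of 26 carried *Cck*. Of 57 *Gip* carriers, 20 (35.1%) carried *Cck*, whereas 1 carried *Gcg* and 1 *Pyy*. Of 12 *Nts* carriers 5 carried *Gcg* and 9 *Sct*, and of 8 *Sst* carriers 3 carried *Ghrl*, all 3 in IEC-KO 1, without which the count was 0 of 3. Of the 9 cells that carried *Tac1* at this limit, 5 in IEC-KO 1 and 4 in IEC-KO 2, 0 carried *Gip*, *Gcg*, *Pyy* or *Sst*. At 3 UMIs, 8 of 32 *Tac1* carriers also carried *Gip*, 3 *Gcg*, 2 *Pyy* and 0 *Sst*.

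**Figure D2:**
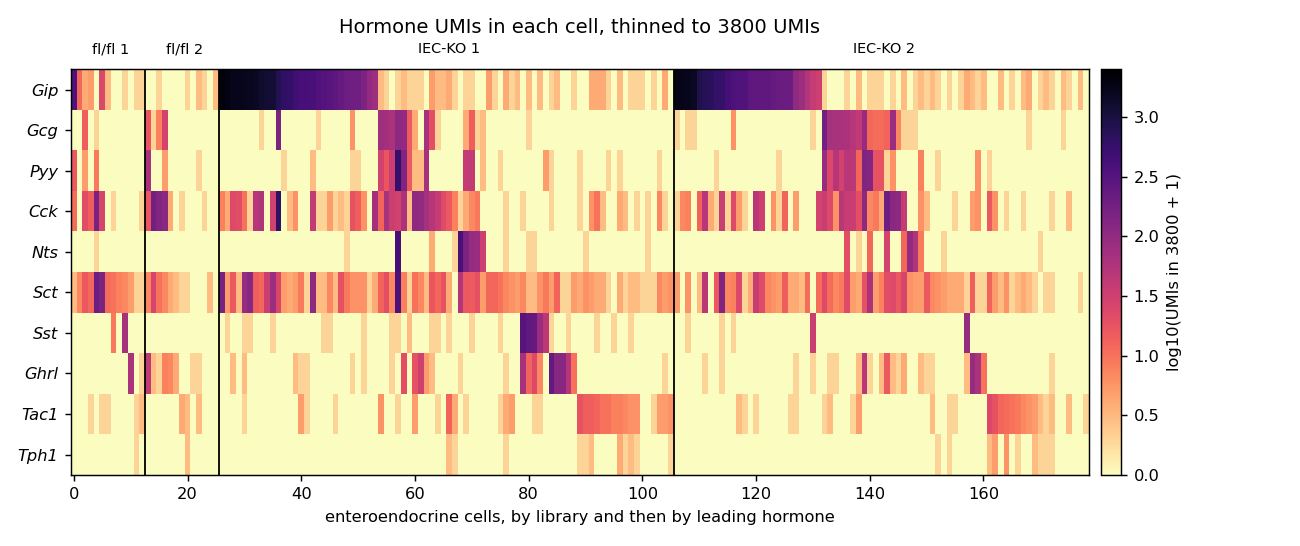
UMIs of 10 hormone genes (rows) in each of the 179 enteroendocrine cells (columns), thinned to 3800 UMIs, coloured as log10(UMIs + 1), by library and then by the hormone with most UMIs. *Gip*-led cells form the block at the left of each IEC-KO library (28 and 26 cells, against 2 and 0 in the fl/fl libraries), and *Gcg*, *Pyy* and *Cck* share cells.

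When each cell was put with the peptide of most UMIs, or with *Tph1* where no peptide reached 3, 56 were led by *Gip*, 21 by *Tac1*, 18 by *Sct*, 17 by *Cck*, 11 by *Ghrl*, 10 by *Gcg*, 8 each by *Pyy* and *Nts*, 7 by *Sst* and 5 by *Tph1*. A further 15 had none and 3 were tied. The transcription factors and receptors of these groups are given below as cells with a UMI in 3800, which at this depth misses most cells that express a scarce gene.

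*Gip*-led cells had a median of 361 *Gip* UMIs in 3800. *Isl1*, a factor of several endocrine lineages, was seen in 28 of these 56 cells, *Pax6* in 19 and *Rfx6* in 12, of the 17 members in all with an *Rfx6* UMI. The cannabinoid receptor gene *Cnr1* was seen in 10 of them, and in 1 of the 123 other members. The fatty acid receptor gene *Ffar1* was seen in 10, the lipid receptor gene *Gpr119* in 5, the gene of the sulphonylurea receptor *Abcc8* in 9 and the secreted peroxidase gene *Gpx3* in 25. *Fabp5*, a fatty acid binding protein gene looked at after its values were seen, was found in 54 of the 56 cells, with 34.6 UMIs per 10000, against at most 6.35 per 10000 in any other group. *Chga*, by contrast, was seen in 8 of these cells.

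Among cells led by *Gcg* or *Pyy* (18 cells) and by *Cck* (17), the factor *Etv1* was seen in 12 and 10, and it was also seen in 4 of the 8 *Nts*-led cells. It was seen in 8 of 56 *Gip*-led, 1 of 18 *Sct*-led and 1 of 11 *Ghrl*-led cells. In cells led by *Tac1* or *Tph1* it was seen in 1 of 26, and in *Sst*-led cells in 0 of 7. These counts were not tested against one another. *Ffar1* was seen in 5 *Cck*-led and 3 *Nts*-led cells. The granule gene *Scg2* reached 4.15 UMIs per 10000 in the *Cck*-led cells, against 1.55 in the *Gip*-led cells. These are counts of few cells, most of them from the IEC-KO libraries.

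Of the 11 *Ghrl*-led cells, *Isl1* was seen in 8 and *Scgn*, of a calcium sensor, in 7. In *Sst*-led cells the homeobox gene *Hhex* was seen in 4 of 7, and *Iapp*, which encodes the peptide amylin, in 6 of 7, at 13.7 UMIs per 10000 against at most 0.423 in any other group. *Hhex* is known as a factor of the somatostatin cells of the pancreatic islet, too.

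Cells led by *Tac1* or *Tph1* (26 cells) had the highest levels of both chromogranin genes among the groups. *Chga* was seen in 25 and *Chgb* in all 26, at 19.9 and 77.5 UMIs per 10000, against 7.38 and 28.2 in the *Sct*-led cells, the next highest, and 0.468 and 14.6 in the *Gip*-led cells. *Chga* was also seen in 15 of 18 *Sct*-led and 9 of 11 *Ghrl*-led cells. *Isl1* was seen in 0 of 26, as in 0 of the 15 cells with no hormone, and *Scg2* in 0 of 26, against 1 of those 15. The factor *Lmx1a*, of serotonin-making cells, was seen in 4, *Rab3c*, a vesicle gene, in 8, the irritant channel gene *Trpa1* in 4, and *Ddc*, which makes serotonin from the product of *Tph1*, in 19. *Lmx1a* was seen in 2, *Rab3c* in 3 and *Trpa1* in 1 of the 18 *Sct*-led cells, too. *Afp* was seen in 5 of the 26 cells, in 2 *Sct*-led cells and 2 with no hormone, and in none of those led by *Gip*, *Gcg*, *Pyy*, *Cck*, *Nts*, *Sst* or *Ghrl*.

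*Neurog3*, which marks endocrine progenitors, was seen in 5 of the 15 cells with no hormone and in 3 of the other 164 members. Of these 15 cells, 1 and 5 came from the fl/fl and 3 and 6 from the IEC-KO libraries. In fl/fl 2, those with 18136, 18492, 20555 and 20684 UMIs in all held only 4 panel UMIs each. The first of these had UMIs of all 10 tuft markers. The remaining cell of fl/fl 2 had 27 panel UMIs. In IEC-KO 2, cells with 10618 and 11026 UMIs also held 4 panel UMIs each. Whether such cells are endocrine was not tested. The proliferation gene *Top2a* was seen in 4 of the 15 cells with no hormone and in 17.3% of all members, against 19.2% of tuft cells.

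Between genotypes, *Gip*-led cells were 2 of 13, 0 of 13, 28 of 80 and 26 of 73 members, or 15.4%, 0%, 35.0% and 35.6%. A count of 0 in 13 cells allows a share of up to 23.1% when the limit is set at 3 counts, and of up to 24.7% by the exact 95% interval. The means were 7.69 ± 10.9% and 35.3 ± 0.436% (SD, n = 2 each), and the groups did not overlap (exact permutation p = 0.333, the smallest possible). *Nts*-led cells were 0, 0, 5 and 3, and *Gcg*-led cells 0, 0, 3 and 7. *Cck*-led cells were 2, 3, 8 and 4, or 15.4%, 23.1%, 10.0% and 5.48%, lower in both IEC-KO libraries (exact permutation p = 0.333). *Tac1*-led cells were 0, 1, 11 and 9, or 0%, 7.69%, 13.8% and 12.3%, higher in both. *Ghrl*-led cells were 1, 2, 5 and 3, or 7.69%, 15.4%, 6.25% and 4.11%, and *Tph1*-led cells 1, 1, 0 and 3, or 7.69%, 7.69%, 0% and 4.11%, lower in both (exact permutation p = 0.333 for each of these 3). At 10 UMIs the differences for *Ghrl* and *Tph1* turned to 0.0237 and 1.48 percentage points. The shares led by *Sct* (38.5%, 0%, 7.5% and 9.59%), *Pyy* (0%, 7.69%, 3.75% and 5.48%) and *Sst* (7.69%, 0%, 6.25% and 1.37%) overlapped between the genotypes. With 2 libraries a side and 13 cells in each fl/fl library, no difference in these shares could pass the test.

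**Figure D3:**
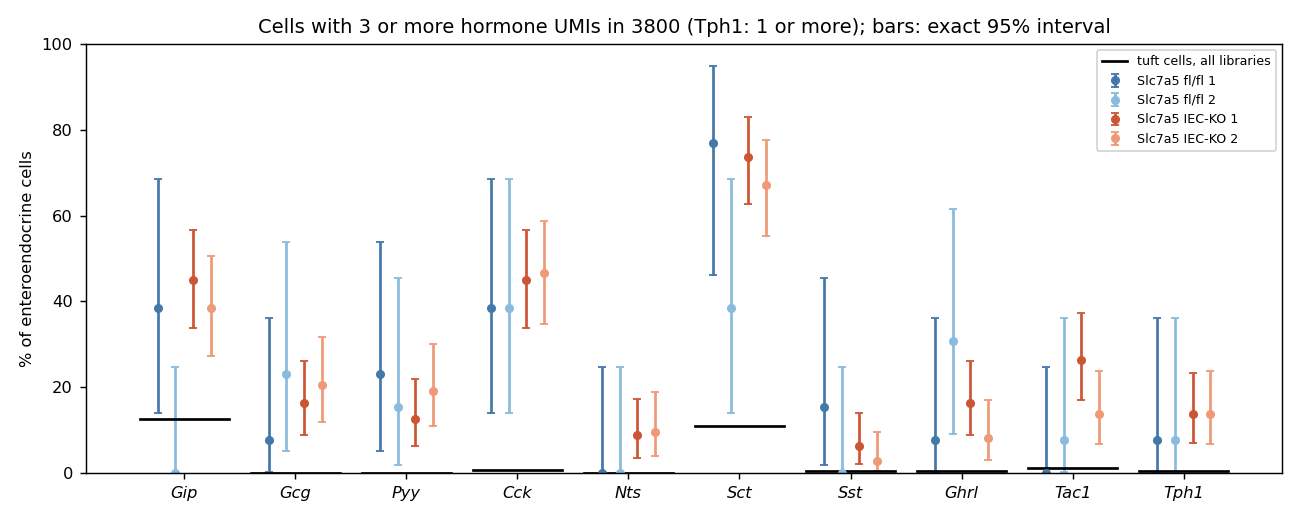
Share of enteroendocrine cells (%) that carried each hormone in a library (points, with exact 95% intervals). A black line gives the share among tuft cells pooled over the libraries, which differed in it. The intervals of the fl/fl libraries are wide, and for *Gip* fl/fl 1 (38.5%) was within the range of the IEC-KO libraries (45.0% and 38.4%) while fl/fl 2 was at 0%.

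Carriers at 3 UMIs did not show the same split as the leading hormone. *Gip* was carried by 38.5%, 0%, 45.0% and 38.4% of members (exact permutation p = 0.667), since 5 cells of fl/fl 1 passed 3 UMIs and 3 of them 10. *Tac1* was carried by 0%, 7.69%, 26.3% and 13.7%, *Nts* by 0%, 0%, 8.75% and 9.59%, *Cck* by 38.5%, 38.5%, 45.0% and 46.6%, and *Tph1* by 7.69%, 7.69%, 13.8% and 13.7%, the IEC-KO libraries being higher in all 4 (exact permutation p = 0.333 for each). At 10 UMIs the *Cck* difference turned to −7.17 percentage points. The shares of *Gcg*, *Pyy*, *Sct*, *Sst* and *Ghrl* overlapped between the genotypes. Of the 10 hormones, 0 could reach a p under 0.05 in this design.

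To compare levels, the UMIs of the members were summed in each library and compared in edgeR (quasi-likelihood), with Benjamini-Hochberg adjustment over the 3944 genes that passed the filter on low counts. Of these, 29 (0.735%) had an adjusted p under 0.05, 22 higher (0.558%) and 7 lower (0.177%) in the libraries labelled IEC-KO. When sums were scaled by library size only, the split was 12 higher and 8 lower. It was 16 and 15 at a defensin limit of 10%, 3 and 4 with cells thinned to 3800 UMIs, 5 and 9 with the rule on thinned cells, and 7 and 4 in DESeq2. Of the 22 genes that rose, 9 reached the filter through the IEC-KO libraries alone. Mitochondrial genes, whose share is used as a sign of RNA quality, made up 3.00%, 2.60%, 1.80% and 1.97% of members' UMIs in fl/fl 1, fl/fl 2, IEC-KO 1 and IEC-KO 2, and ribosomal protein genes 19.02%, 20.1%, 20.8% and 20.4%. The former were lower and the latter higher in both IEC-KO libraries. Mitochondrial genes were lower there in tuft cells (3.46%, 3.33%, 2.42% and 2.49%) and the other low-defensin cells (2.88%, 2.89%, 2.03% and 2.03%) too, and the part of either share in the changes below was not tested. The targeted gene *Slc7a5* (chromosome 8, 121881150 to 121907694, GRCm38) had 0, 1, 1 and 1 UMIs in the members, too few to test. The floxed exon lies at the 5′ end and the kit reads the 3′ end, so these counts do not check the deletion, and each direction rests on the labels.

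Among the 9 peptide hormone genes, all of which were tested, 4 rose and 0 fell, beside 0.558% of all genes that rose. The list was chosen with results of these data known, and *Nts*, among the 4, was tested only for its counts in the IEC-KO libraries. The median log2 fold change of the 9 was 1.49, against 0.008 over all genes tested, and 1.39 over the 8 without *Nts*, of which 3 rose. In the other low-defensin cells of the same libraries 9 of 9 rose, with a median of 0.915 (16.8% of all genes rose there). In tuft cells 1 of 7 tested rose and 1 fell. Against the change in the other low-defensin cells, *Gcg* (difference 0.68, edgeR adjusted p = 0.0904) and *Tac1* (0.69, 0.181) did not pass. A rise of these genes was thus not confined to members. *Gip* (chromosome 11, 96024545 to 96030831) was counted 996 and 60 times in the fl/fl libraries and 34909 and 31430 times in the IEC-KO libraries, or 6130 and 285 against 63024 and 41502 CPM scaled by the trimmed mean of M values (TMM). Both IEC-KO libraries were above both fl/fl libraries, as in 20.3% of all genes tested (in 19.8% both were below), and the fl/fl libraries differed more than the IEC-KO libraries did. Its log2 fold change was 4.03 (standard error 0.83, edgeR adjusted p = 0.0416).

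In fl/fl 1, 82.0% of the *Gip* UMIs were from 1 cell. When the *Gip*-led members were left out of all libraries, which removes cells by the gene measured and is no test of it, the log2 fold change was −0.65 (edgeR adjusted p = 0.655). The call was lost under 9 of the other settings tried, with log2 fold changes from 3.79 (doublets left out, edgeR adjusted p = 0.0933) to 4.06 (genes with 10 or more UMIs in every library, 0.246), the scaling by library size only (3.93, 0.0684), thinned cells (3.98, 0.460) and DESeq2 (4.01, adjusted p = 0.9998) among them. Leaving out fl/fl 1 gave 7.53 and leaving out fl/fl 2 gave 3.12.

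*Nts* (chromosome 10, 102481756 to 102490486) was counted 11, 2, 2416 and 677 times, or at 67.7, 9.50, 4362 and 894 TMM-scaled CPM. Its log2 fold change was 6.19 (standard error 0.75). It reached the filter through the IEC-KO libraries alone and is given without p. The 2 fl/fl libraries held hardly any neurotensin transcript, and the 2 IEC-KO libraries differed from each other several-fold. In IEC-KO 1, 41.8% of the *Nts* UMIs came from 1 cell, and in IEC-KO 2 33.8%. Without IEC-KO 1 the log2 fold change was 4.66, and without fl/fl 1 it was 8.09.

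*Gcg* (chromosome 2, 62474530 to 62483650), the precursor gene of GLP-1, was at 480, 926, 2230 and 2864 TMM-scaled CPM, with a log2 fold change of 1.85 (standard error 0.26, edgeR adjusted p = 0.00301). *Tac1* (chromosome 6, 7554879 to 7565834) was at 215, 147, 518 and 358, with 1.29 (standard error 0.25, adjusted p = 0.0252). In fl/fl 1, 87.2% of the *Gcg* UMIs were from 1 cell and in fl/fl 2 51.3%, so the fl/fl level rests on very few cells. *Gcg* did not pass in 3 of 17 alternative settings, though its log2 fold change stayed about as large. These were thinned cells (2.05, edgeR adjusted p = 0.0988), at least 5 panel genes (1.75, 0.614) and a defensin limit of 10% (2.53, 0.220). *Tac1* did not pass in 7 of 17, at adjusted p values from 0.0722 with doublets left out to 0.614, DESeq2 among them (0.0984). Its log2 fold changes there ran from 1.14 to 1.73. *Pyy*, with 499, 1530, 2921 and 3153, had a log2 fold change of 1.57 and an adjusted p of 0.0540 in edgeR. It passed in 8 alternative settings, among them doublets left out (0.0448) and each library left out in turn, where its log2 fold change ran from 1.00 without fl/fl 1 to 2.64 without fl/fl 2.

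The other hormones did not pass the test, though some passed in alternative settings. *Cck* was at 4893, 6736, 4602 and 3654 TMM-scaled CPM, a log2 fold change of −0.50 (standard error 0.20, edgeR adjusted p = 0.453). *Sct* spread from 831 to 9331 among the fl/fl libraries alone, *Sst* from 33.3 to 1286, and *Ghrl* was at 1163, 1116, 2289 and 774. *Tph1* was at 67.7, 23.8, 63.2 and 44.9. These 4 overlapped between the genotypes. *Sst* passed with the replicate number as a block (log2 fold change 2.02, edgeR adjusted p = 9.44e-05) and with no filter on low counts (1.62, 7.61e-13). It was at −0.74 with at least 5 panel genes. *Ghrl*, at 0.42 in the fit above, passed with the rule on thinned cells (5.39, edgeR adjusted p = 0.0031). *Sct* was at 2.09 without fl/fl 1 and at −1.38 without fl/fl 2.

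**Figure D4:**
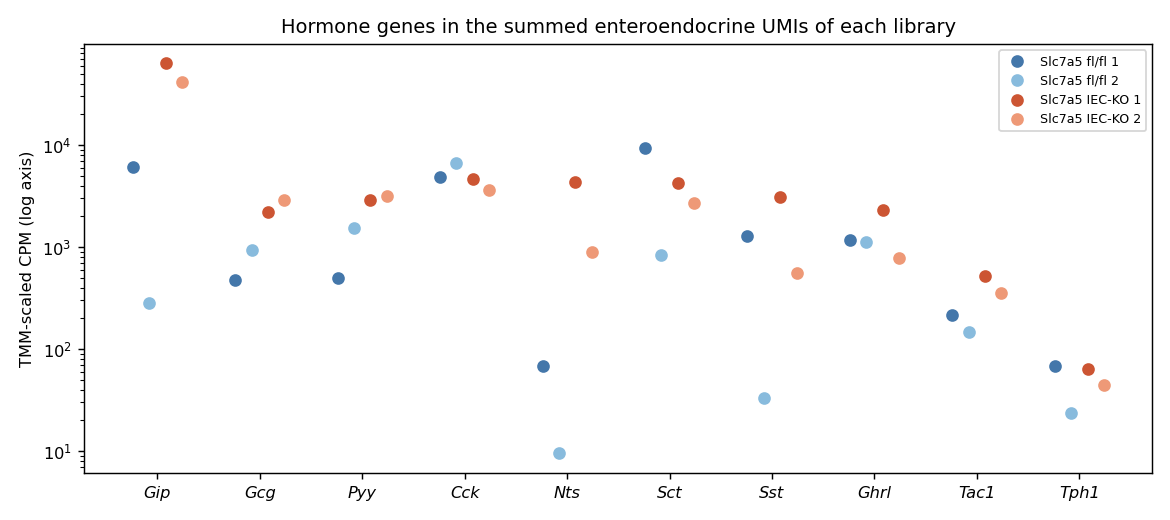
TMM-scaled CPM (log axis) of 10 hormone genes in the summed enteroendocrine UMIs of each library (1 point each). *Gip*, *Gcg*, *Pyy*, *Nts* and *Tac1* were higher in both IEC-KO libraries than in both fl/fl libraries, and *Pyy* did not pass the test; for *Sct* and *Sst* the fl/fl libraries spanned more than the difference between genotypes.

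The genes of the machinery that endocrine cells share did not pass the test. Over all genes tested 0.735% passed in either direction, so a count of 0 in lists this short is near that share and is no result about them. None of 16 granule and processing genes tested (29 listed) passed, with a median log2 fold change of 0.49. The convertase gene *Pcsk1* was at 0.31 (standard error 0.43) and the amidating enzyme gene *Pam* at 1.43 (0.38, edgeR adjusted p = 0.161). None of 15 lineage factors tested (30 listed) passed, with a median of 0.25, *Pax6* at 1.03 (0.37) and *Neurog3* at −0.96 (0.56). None of 6 serotonin genes (9 listed, median 0.39), 4 nutrient receptor and transporter genes (24 listed, median 0.31) or 3 other peptide genes (17 listed, median −0.33) passed either. The listed genes that were not tested had too few UMIs. The genes of the rule, given without a test, had a median of 0.74 over the 9 that passed the filter.

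The next genes compared were targets of ATF4, the transcription factor that carries the integrated stress response, in which cells short of an amino acid raise genes for amino acid synthesis and uptake and for handling stress. Of 25 listed targets 19 passed the filter on low counts, 9 of which rose (beside 0.558% of all genes) and 0 fell. Of those 19, 12 reached the filter through the IEC-KO libraries alone, 6 of the 9 among them, so this count supports nothing about the list. Of the 6 targets that both fl/fl libraries would have let pass (*Asns*, *Ddit4*, *Eif4ebp1*, *Mthfd2*, *Nupr1* and *Slc3a2*), 3 rose and 0 fell, with a median log2 fold change of 1.26, against −0.05 over the 3089 genes that passed in the same way. With 10 or more UMIs required in every library, *Nupr1* and *Eif4ebp1* were the listed targets that passed in edgeR. The list was chosen with results of these data known and is no independent evidence. *Atf4* itself was counted 12, 15, 103 and 142 times, at 73.9, 71.3, 186 and 188 TMM-scaled CPM, with a log2 fold change of 1.36 (standard error 0.25, edgeR adjusted p = 0.0172).

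*Nupr1*, a stress-induced nuclear protein gene (chromosome 7, 126623249 to 126630861), was at 449, 390, 2064 and 1944 TMM-scaled CPM, a log2 fold change of 2.26 (standard error 0.19, edgeR adjusted p = 5.72e-05), and had the smallest p of the genes that rose. *Asns*, the gene of asparagine synthetase, was at 36.9, 52.3, 130 and 143, with 1.58 (0.30, adjusted p = 0.0258), and *Eif4ebp1*, a repressor of translation, at 117, 114, 339 and 283, with 1.42 (0.22, adjusted p = 0.00578). The libraries of a genotype lay close together in these 3 genes, and the groups did not overlap, as in 40.1% of all genes tested in one direction or the other. *Nupr1* passed in all 17 alternative settings, while *Asns* did not pass in 8 of 16 (adjusted p from 0.0541 to 0.751), *Atf4* in 6 of 17 (0.0600 to 0.529) and *Eif4ebp1* in 4 of 17 (0.0616 to 0.417), DESeq2 among them for each.

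The stress genes of low count were all but absent from the fl/fl members. *Trib3*, a pseudokinase gene that feeds back on ATF4, had 0, 0, 39 and 60 UMIs, at least 9.39-fold higher against a floor of 3 UMIs over the fl/fl group. *Chac1*, which breaks down glutathione, had 0, 0, 21 and 40, at least 5.78-fold higher. *Adm2*, a peptide gene outside the list, had 0, 0, 35 and 42, at least 7.30-fold higher. *Ddit3*, the factor CHOP, had 1, 1, 62 and 66 UMIs, a ratio of pooled counts of 18.2 (95% counting interval 4.94 to 152), and *Atf5* 1, 1, 47 and 71 (16.8, 4.54 to 140). *Phgdh*, the first enzyme of serine synthesis, had 0, 2, 39 and 63 (14.5, 3.91 to 121), and *Cth*, which makes cysteine, 1, 1, 38 and 51 (12.7, 3.403 to 106). All 7 reached the filter through the IEC-KO libraries alone and are given without p.

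The stretches before the start sites of these targets are shown because ATF4 is known to bind elements of the form TGATGNAA, N being any base. This motif was searched on both strands in the 250 bases before each RefSeq start (GRCm38.p6), and 7 of the 9 genes that rose had such an entry, with 8 starts among them. It was found before 3 of the 8, those of *Nupr1*, *Asns* and *Chac1*, and before 1134 of 32851 starts (3.45%) of all genes. The motif is in capitals, read 5′ to 3′ on the strand of the gene, so that TTGCATCA is the motif on the opposite strand. Its distance from the start was 102, 15 and 185 bases.
*Nupr1*, chr7:126625537-126625616 (minus strand): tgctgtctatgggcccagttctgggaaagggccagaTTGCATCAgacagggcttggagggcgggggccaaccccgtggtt
*Asns*, chr6:7693210-7693289 (minus strand): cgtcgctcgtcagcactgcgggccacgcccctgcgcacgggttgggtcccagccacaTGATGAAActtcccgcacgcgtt
*Chac1*, chr2:119351013-119351092 (plus strand): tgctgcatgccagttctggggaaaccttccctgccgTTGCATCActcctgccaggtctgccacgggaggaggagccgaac
A match of letters is a description of the sequence, and no binding was measured.

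Of the 10 other targets tested, *Pck2* had 2, 4, 35 and 60 UMIs and *Stc2* 1, 0, 16 and 25. Both reached the filter through the IEC-KO libraries alone and are given without p. *Mthfd2* did not pass (log2 fold change 1.10, standard error 0.31, edgeR adjusted p = 0.198), and *Aldh18a1* was at −0.06 (0.52). *Slc3a2*, which encodes the partner chain of the SLC7A5 protein, was at 0.78 (0.31, adjusted p = 0.452). Of 8 amino acid transporter genes tested (17 listed) 0 passed in edgeR, with a median of 0.12 and *Slc1a5* at 0.81 (0.30, adjusted p = 0.398). Over all genes 0.735% passed, so 0 of 8 is near that share and is no result about this list. In the other low-defensin cells 9 of its 17 genes rose and 4 fell (16.8% of all genes rose there).

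The same genes were measured in the other cells of the libraries. *Nupr1* in tuft cells was at 322, 240, 1617 and 1917 CPM (not TMM-scaled), and in members at 425, 399, 1815 and 1765. In tuft cells 13 of 20 tested targets rose, with a median of 2.19 (1.2% of all genes tested there rose), and in the other low-defensin cells 25 of 25, with a median of 2.17 (16.8% of all genes rose). The 3 comparisons come from the same 4 libraries, and how many of the 20 targets reached the filter in tuft cells through 1 genotype alone was not examined. Whether transcripts of neighbouring cells in the suspension add to the level in members was not tested.

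**Figure D5:**
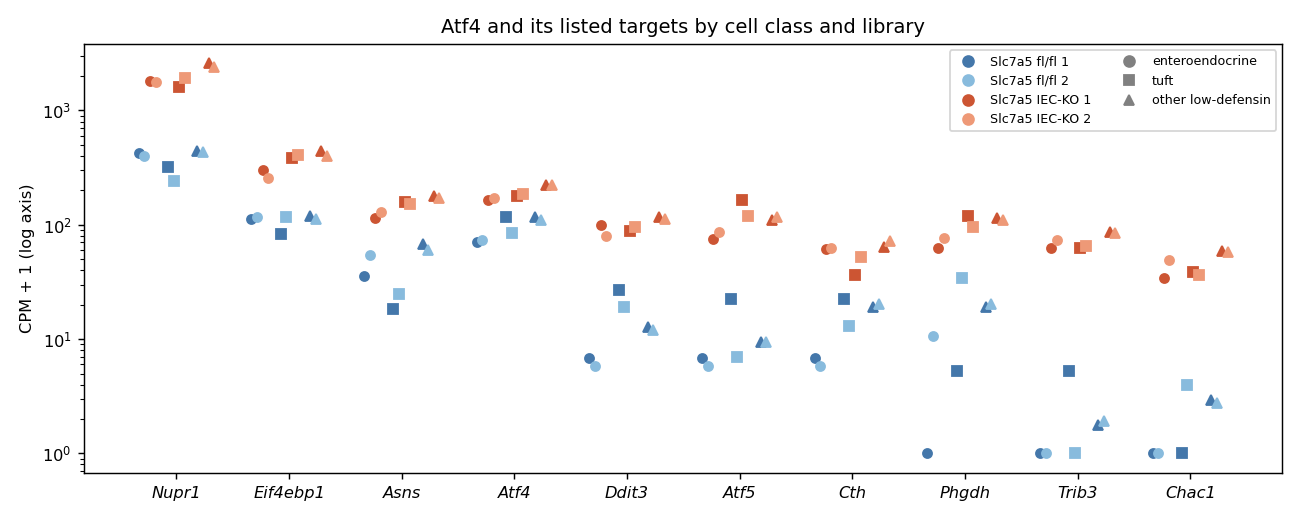
CPM + 1 (log axis) of *Atf4* and 9 of its listed targets in enteroendocrine (circles), tuft (squares) and other low-defensin cells (triangles), 1 point per library. For each gene the IEC-KO libraries sat above the fl/fl libraries in the 3 cell groups, *Nupr1* at 425 and 399 against 1815 and 1765 CPM in enteroendocrine cells.

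Of the genes outside the lists, *Mt1*, a metallothionein gene, was at 203, 352, 959 and 930 TMM-scaled CPM (log2 fold change 1.75, standard error 0.23, edgeR adjusted p = 0.00296), and *Chchd10*, of a mitochondrial protein, at 388, 380, 984 and 984 (1.36, 0.18, adjusted p = 0.00296). *Tmed6*, of vesicle transport, had 2, 3, 40 and 49 UMIs (log2 fold change 2.32, standard error 0.48, given without p since it reached the filter through the IEC-KO libraries alone), and *Rnase1*, a secreted ribonuclease gene, was at 154, 176, 451 and 297 (1.16, 0.24, adjusted p = 0.0433). *Chchd10* did not pass in 2 and *Mt1* in 3 of 17 alternative settings. *Rnase1* did not pass in 10 of 17, among them without IEC-KO 1 (edgeR adjusted p = 0.115).

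Among the 7 genes that fell were the defensin-like *Gm15292* (351, 271, 27.1 and 47.5 TMM-scaled CPM, log2 fold change −2.99), *Defa21* (−1.34, given without p since the rule used defensins), the Paneth cell ribonuclease gene *Ang4* (−1.12), the lipoprotein gene *Apoc3* of enterocytes (−1.83), and *Hmgb2* and *Rsrp1* (−0.97 and −0.96). *Apoc3* was at 111, 119, 39.7 and 26.4 (standard error 0.33, edgeR adjusted p = 0.0172), *Ang4* at 1459, 1173, 632 and 574 (0.19, adjusted p = 0.0100) and *Hmgb2*, a chromatin protein of dividing cells, at 382, 385, 175 and 214 (0.18, adjusted p = 0.0252). *Gm15292* reached the filter through the fl/fl libraries alone and is given without p. *Ang4* did not pass in 4 of 17 alternative settings, *Apoc3* in 5, *Hmgb2* in 6 and *Rsrp1* in 9. Calls lost with 1 library left out were those of *Ang4* (edgeR adjusted p = 0.0523), *Apoc3* (0.0528) and *Rsrp1* (0.155) without IEC-KO 2, *Rsrp1* (0.357) without fl/fl 2 and *Hmgb2* (0.337) without IEC-KO 1. Since defensin genes resemble one another closely, the division of reads among them is uncertain.

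The lists of other cell types moved with genotype in part. Of 12 Paneth markers tested, *Itln1* and *Pnliprp2* rose (log2 fold changes 1.00 and 1.35) and *Ang4* fell, beside 0.558% and 0.177% of all genes. Their median was 0.32 and includes defensins, which the rule used. *Itln1* did not pass in 11 of 17 alternative settings, among them a defensin limit of 10% (0.41, edgeR adjusted p = 0.498) and without fl/fl 2 (0.0904) or IEC-KO 1 (0.0763), and *Pnliprp2* in 9 of 17, among them that limit (0.56, 0.646) and DESeq2 (0.301). None of 13 goblet (median −0.24), 4 tuft (−0.68), 9 enterocyte (−0.61), 1 stem cell (−0.21) or 6 dissociation stress genes (−0.09) passed, and no immune marker could be tested. Of 9 cycling genes *Hmgb2* fell, the median was −0.97 and 0 of the 9 were above 0, with *Top2a* at −1.59 (standard error 0.35, edgeR adjusted p = 0.0540). Cycling genes made up 0.0977%, 0.105%, 0.0352% and 0.0549% of members' UMIs. *Xist*, transcribed in females, was at 382, 385, 691 and 837 TMM-scaled CPM (1.00, 0.19, adjusted p = 0.0252; not passed in 7 of 17 alternative settings, without IEC-KO 2 among them at 0.112), and 4 Y-linked genes together had 7, 12, 9 and 12 UMIs, or 40.7, 58.4, 14.3 and 14.4 CPM. Both moved with genotype in opposite directions, although the study's methods state that the mice were sex-matched. In the other low-defensin cells *Xist* rose too (16.8% of all genes rose there). The Y-linked *Ddx3y*, *Eif2s3y*, *Uty* and *Kdm5d* fell in those cells. The sex of the mice in each library was not tested, nor was the part of this difference in the other results.

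Lastly, the change of each gene in enteroendocrine cells was tested against its change in other cells of the same libraries, with library as a block. Against tuft cells, 3 of 5263 genes (0.057%) passed, all with a larger rise, or a smaller fall, in the endocrine cells. *Gip* differed by 4.31 (log2, standard error 0.70, edgeR adjusted p = 0.00956), and was at 198, 223, 327 and 422 TMM-scaled CPM in the tuft cells. *Gcg* (0.29, adjusted p = 0.986) and *Nupr1* (−0.56, standard error 0.26, adjusted p = 0.816) did not pass in edgeR. *Nts* differed by 5.13 (standard error 1.05), given without p for the reason above.

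Against the other low-defensin cells, 23 of 11457 genes (0.201%) passed, 19 with a larger and 4 with a smaller change in members, among them *Gip* (4.36) and *Cck* (−1.03). *Nts*, counted in the 23, differed by 4.77 in the same fit. This is no test of it, since in members it reached the filter through the IEC-KO libraries alone. This fit found no spread of its own for single genes (infinite prior degrees of freedom), so the difference between libraries of a genotype entered it only through a shared value, and its p values are too small for genes such as *Gip*. With cells thinned to 3800 UMIs, 0 genes passed in edgeR in either comparison (385 and 137 at an unadjusted p under 0.05 against the other low-defensin cells and against tuft cells).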

How the data were processed

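Counts of UMIs per gene and cell were deposited for 4 libraries (10x 3′ v2). Per the labels, the authors' processing notes name Cell Ranger 2.1.1 and mm10, whereas the study's methods name a later version of Cell Ranger. All 26498 deposited barcodes were used. No cell had fewer than 3800 UMIs, the depth to which cells were thinned. Depth per cell and library is given with the results. Tuft cells were the non-members under the defensin limit with at least 4 of 10 tuft markers, and the remaining cells under that limit are called other low-defensin cells. Scrublet in Scanpy 1.11.5 gave each cell a doublet score. The cells with the highest scores in each library were marked as doublets, at an assumed rate of 0.8% per 1000 cells, and were kept. The members, gene lists and tests were chosen with earlier results of these data known. Member counts were summed per library and fitted with edgeR 4.0.16 in R 4.3.3 (filterByExpr, TMM, quasi-likelihood test, Benjamini-Hochberg adjustment at 0.05), and the script was tested on simulated data. DESeq2 1.42.0 was an alternative, as were other scalings, filters, rule limits and libraries left out. Changes between cell types were tested as an interaction with library as a block. Shares were compared by exact two-sided permutation tests. Coordinates are those of GENCODE on GRCm38. The named genes were *Slc7a5*, the hormones, the genes of the rule, list members that passed, the 10 largest rises and falls with at least 50 UMIs and no overlap, the 5 largest interactions either way, and the 15 leading genes at 50 CPM or more. Other genes were chosen after their values were seen. Results for some genes are not reported here.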

Additional observations from a re-analysis of the deposited data

Results flagged for a closer look

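The results below are those whose genotype change in enteroendocrine cells differed from the change in another cell group of the same libraries, as log2 differences from edgeR with Benjamini-Hochberg adjustment. Against the other low-defensin cells, whose fit has p values that are too small as said above, the differences were 4.77 for *Nts* (standard error 0.29), 4.36 for *Gip* (0.13), 1.86 for *Tsen34* (0.43, adjusted p = 0.0122), 1.82 for *Fabp5* (0.20, adjusted p = 4.70e-16), 1.56 for *Upp1* (0.32, adjusted p = 0.000671) and −1.03 for *Cck* (0.15, adjusted p = 1.07e-08). With 1 library left out in turn the *Nts* difference ran from 3.45 to 6.86 and the *Gip* difference from 2.31 to 6.89. *Fabp5* was at 969, 8.22, 1627 and 1164 TMM-scaled CPM in members, with fl/fl 2 far below the other 3 libraries, and without fl/fl 2 the difference was 0.22 (adjusted p = 0.959). *Upp1*, of uridine breakdown, was at 35.3, 65.7, 116 and 80.8 in members and 35.1, 32.2, 20.9 and 21.1 in the other cells. *Tsen34*, of tRNA splicing, was at 15.1, 28.8, 60.6 and 49.4 in members and 48.6, 52.4, 33.1 and 33.9 in the other cells. *Tsen34* did not pass in any of 6 alternative settings, among them without fl/fl 1 (1.47, adjusted p = 0.432), fl/fl 2 (2.28, 0.106), IEC-KO 1 (1.71, 0.678) or IEC-KO 2 (1.95, 0.192). *Upp1* did not pass without fl/fl 1 (1.08) or IEC-KO 1 (1.31), nor *Cck* without IEC-KO 2 (−0.91). With thinned cells none of the 6 genes passed in edgeR. Their differences were then 7.12 for *Nts*, 4.43 for *Gip*, 3.45 for *Tsen34*, 2.00 for *Fabp5*, 2.13 for *Upp1* and −0.76 for *Cck*.

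Against tuft cells the differences were 4.31 for *Gip* (standard error 0.70, adjusted p = 0.00956), 2.52 for *Myl7* (0.48, adjusted p = 0.0297) and 2.26 for *Sis* (0.43, adjusted p = 0.0297). *Myl7*, a myosin light chain gene, was at 537, 134, 636 and 474 in members and 48.4, 34.7, 14.1 and 12.04 in tuft cells, and *Sis*, of sucrase-isomaltase, an enterocyte enzyme, at 80.2, 134, 75.1 and 75.8 in members and 141, 127, 11.5 and 25.2 in tuft cells. For both genes the tuft cells were lower in both IEC-KO libraries, while in members *Myl7* overlapped between genotypes and *Sis* was lower in both IEC-KO libraries. The *Myl7* difference did not pass in 3 of 6 alternative settings, without fl/fl 2 among them (1.92, adjusted p = 0.369), nor the *Sis* difference in 5 of 6, without fl/fl 1 (1.93, 0.338), fl/fl 2 (2.81, 0.0548) or IEC-KO 1 (1.87, 0.251) among them. The *Gip* difference did not pass with scaling by library size (4.34, edgeR adjusted p = 0.268), with thinned cells (3.74, 0.0756) or without fl/fl 2 (2.16).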

How the results depend on the processing

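With 13 members in each fl/fl library, shares of members and levels of single hormones turned easily with the settings, and 2 alternatives were chosen after seeing the data: leaving out members with 4 or more tuft markers, and leaving out members led by *Gip*. The cause was not tested for any of the changes below. The share of enteroendocrine cells was lower in IEC-KO by 3.17 percentage points (−3.17) with no defensin limit. Differences (IEC-KO minus fl/fl, percentage points) in the share led by a hormone turned or went to 0 as follows. With 1 or more UMIs they were 0.0 for *Tph1* and 1.37 for no hormone, with 10 or more 0.0237 for *Ghrl* and 1.48 for *Tph1*, without thinning 0.649 for *Sst*, 0.0 for *Tph1* and 1.25 for no hormone, and with at least 5 panel genes −2.97 for *Pyy*. In the share that carried a hormone they were −6.69 for *Gip* and −2.68 for *Gcg* without thinning, 4.31 for *Pyy* and 11.4 for *Sst* at 1 UMI, 5.47 for *Pyy*, −7.17 for *Cck*, 0.649 for *Sst* and 1.30 for *Ghrl* at 10 UMIs, and −1.78 for *Gcg*, −4.86 for *Cck* and −2.52 for *Sct* with at least 5 panel genes.

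In place of 29 genes, 12 passed with 10 or more UMIs in every library, 80 with no filter, 7 with thinned cells, 14 with the rule on thinned cells, 7 with at least 5 panel genes, 17 without members of 4 or more tuft markers, and 11 in DESeq2. The labels do not say that the replicate numbers pair the libraries. The correlation of deviations was 0.104 over 3944 genes, and with 2 pairs this does not settle it. With the replicate block 57 genes passed, 38 higher and 19 lower. Among them were *Pyy* (log2 fold change 1.74, edgeR adjusted p = 4.34e-05) and *Sst* (2.02, 9.44e-05), which did not pass without it. Log2 fold changes that turned were −0.65 for *Gip* without *Gip*-led members, 0.0305 for *Cck* and 0.19 for *Sct* at a defensin limit of 10%, 0.24 for *Sct* with the replicate block, −0.74 for *Sst*, −0.25 for *Tph1*, −0.0182 for *Chga*, −0.20 for *Neurod1* and −0.00339 for *Cryba2* with at least 5 panel genes, and, for *Neurod1*, −0.13 with library size only, −0.0102 with the rule on thinned cells and −0.0398 without members of 4 or more tuft markers. In the comparisons with other cells 0 genes passed in edgeR with thinned cells (385 and 137 at an unadjusted p under 0.05), nor against tuft cells with library size only (0, with 246).

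Leaving out 1 library in turn, where the lone library is assumed to vary like the others, 35 to 125 genes passed, 6 to 47 against other low-defensin cells and 7 to 13 against tuft cells. Differences in shares ran from −3.08 to 4.61 (*Pyy*), −29.9 to 8.54 (*Sct*) and −3.88 to 3.81 (*Sst*) for leading hormones, and for carriers from −4.68 to 10.7 (*Gcg*), −18.5 to 4.54 (*Ghrl*), −7.24 to 0.454 (*Pyy*), −6.49 to 32.0 (*Sct*) and −10.9 to 4.49 (*Sst*). Log2 fold changes ran from −0.24 to 1.23 (*Chga*), −0.10 to 1.57 (*Chgb*), −0.33 to 0.66 (*Cryba2*), −0.53 to 1.03 (*Ghrl*), −0.0365 to 0.11 (*Neurod1*), −1.38 to 2.09 (*Sct*), −0.23 to 5.77 (*Sst*) and −0.32 to 1.16 (*Tph1*).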
